A study of Schmidtea mediterranea with 48 samples.

Results

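The features described here are 37 of the 28413 RNA features measured in whole worms of the planarian Schmidtea mediterranea, selected on their measured RPKM because they stood higher after RNA interference (RNAi) against pax5. A feature was taken where its mean over the 48 libraries was at least 1 RPKM (reads scaled to feature length and library size) and where the log2 ratio of its pax5 mean to the unc22 mean, averaged over days 6, 12 and 18, was at least 0.5. It also had to stay above -1 in pax5 on day 18 and in zfp1 on day 12, between -1 and 1 in zfp1 on day 18, and above -0.5 in sox8 on average over the days. Of all features, 19094 had a mean of at least 1 RPKM. The higher level in pax5 libraries, and the limits on zfp1 and sox8, were thus fixed by the choice and are given as a description with no test.

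All worms were adults of the clonal line CIW4, kept at 20 °C, and were fed bacteria carrying double-stranded RNA in calf liver paste every 3 days. The RNA targeted pax5, zfp1, sox8 or, as the non-targeting control, the nematode muscle gene unc22. With 4 libraries for every RNAi on each of days 6, 12 and 18 there were 12 groups, and the series set out to find transcriptional targets of the 3 genes. What separates replicates (worms, pools or repeated libraries) is not given in the sources used here, and the spread that p-values measure, that between libraries, may be technical. The protocol text covers whole worms and sorted cells alike, and all 48 samples used here are labelled as whole worm tissue. RNAi lowers a transcript without removing the gene. In RNA from whole worms, a change in the number of cells that use a gene and a change in its RNA per cell cannot be told apart.

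Planarians renew all tissues from a pool of dividing stem cells, the neoblasts, and the best described of their lineages leads through migrating progenitors to the epidermis. Pax proteins are transcription factors that bind DNA through a paired domain, and Sox proteins bind through an HMG box. In mice, Pax5 holds B cells to their fate both by activating genes and by repressing genes of other lineages. The zfp1 gene encodes a zinc finger protein that neoblasts need to make epidermal cells. The table pairs its SMED30 identifiers with no gene names, and no name table was used here, so no role is given to any feature and the knockdowns and cell type markers were not checked.

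Whole reads were recovered for all 28413 features from the spacing of the RPKM values. Libraries held 6894458 to 65663283 reads, the shallowest in the sox8 day 6 group and the deepest in the pax5 day 6 group (23372153 to 65663283), while the unc22 day 6 libraries held 10258492 to 29072387. At median depth, 3 reads on a feature of median inferred length (1004 bases) amount to 0.134 RPKM, a floor for counting error alone.

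Taken over the 37 features, the mean of log2(RPKM + 0.5) was 1.87 ± 0.0771, 1.87 ± 0.0321 and 1.93 ± 0.0152 in unc22 on days 6, 12 and 18 (SD, n = 4). In pax5 libraries it was 2.49 ± 0.0528, 2.55 ± 0.0448 and 2.55 ± 0.0229 (SD, n = 4). The lowest pax5 library stood at 2.46, and the highest of the other 36 libraries, a sox8 day 6 library, at 2.10. All 12 pax5 libraries therefore lay above every other library on this measure, which is what the choice of features asks for. The pax5 level was already reached on day 6 and differed little between the days. In zfp1 the means were 1.97, 1.81 and 1.87, and in sox8 they were 2.03, 1.97 and 1.97.

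**Figure D1:**
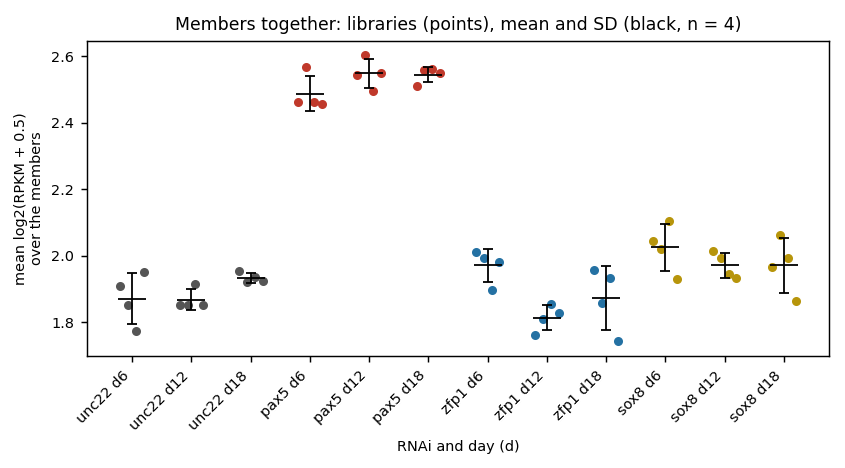
Mean of log2(RPKM + 0.5) over the 37 features in each of the 48 libraries, by RNAi and day; points are libraries and black marks are the group mean and SD (n = 4). The 12 pax5 libraries lie at 2.46 and above and all others at 2.10 or below.

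The differences behind this mean were small for most members. As log2 ratios of group means, the median change in pax5 was 0.60 on day 6, 0.73 on day 12 and 0.66 on day 18, with ranges of -0.06 to 1.72, 0.16 to 2.71 and 0.26 to 2.15. Only 2 members were at least 2-fold higher on every day, 10 on at least 1 day, and 5 on average. All but 1 were higher in pax5 on each day, the exception being SMED30017672 on day 6. The largest change fell on day 6 for 11 members, on day 12 for 12 and on day 18 for 14.

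Libraries of pax5 lay wholly above those of unc22 for 27 members on day 6, 26 on day 12 and 25 on day 18. Among the 22667 features with a mean of at least 0.5 RPKM, 6.2%, 8% and 6.92% were higher without overlap on these days. Limma, with p-values adjusted over all these features and a threshold of 0.05, called 23, 24 and 22 members higher, where 2.44%, 2.06% and 2.48% of all features were, and 0 lower, where 2.68%, 4.2% and 4.98% were. The rule used these contrasts, so the counts describe how far the members separate and test nothing. For 19 members the separation held on all 3 days, for 8 on 2 days, for 5 on 1 day and for 5 on none. Limma called 16, 8, 5 and 8 members on 3, 2, 1 and 0 days. The matching shares of all features over several days were not counted, so these counts stand without them.

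**Figure D2:**
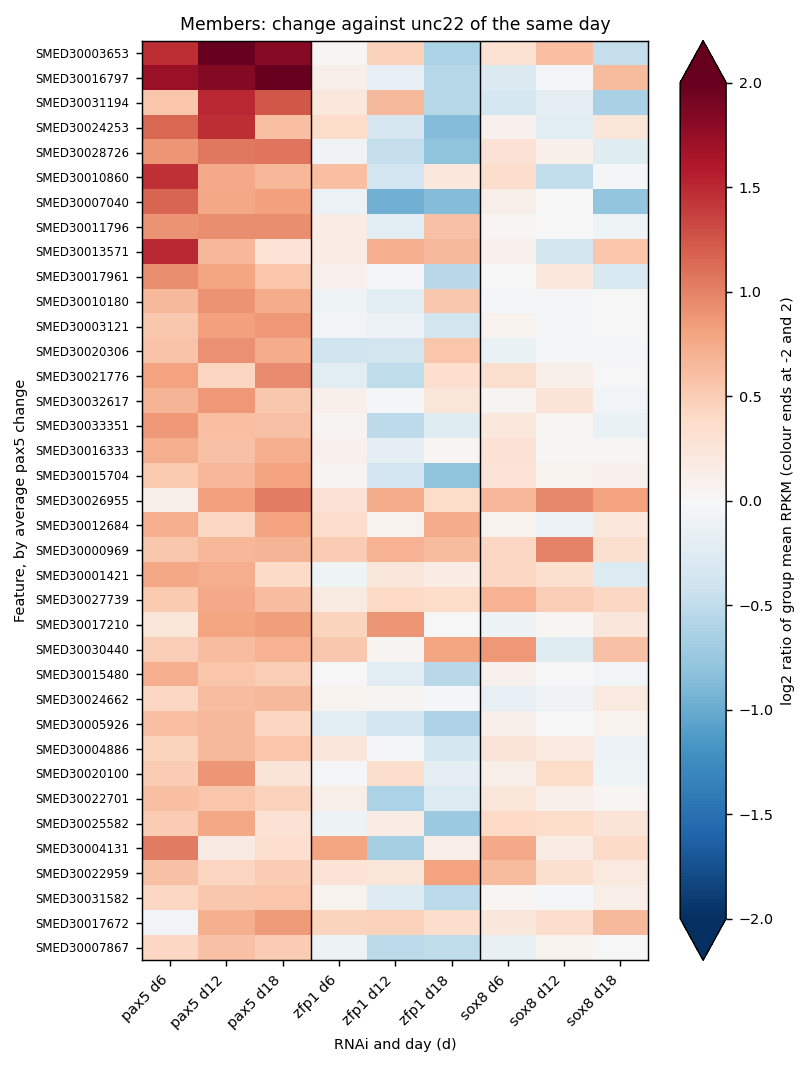
Log2 ratio of group mean RPKM to unc22 of the same day for the 37 members (rows, by average pax5 change) under pax5, zfp1 and sox8 RNAi on days 6, 12 and 18. The pax5 columns are positive for every member except SMED30017672 on day 6 (-0.06), and the zfp1 columns hold both signs on each day.

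SMED30003653 had the largest average pax5 change, 2.01 in log2 units. Its pax5 libraries read 2.85, 3.12, 2.77 and 3.04 RPKM on day 6, 3.79, 4.37, 3.66 and 4.09 on day 12, and 1.91, 3.64, 4.50 and 3.62 on day 18. The unc22 libraries read 0.282 to 1.44 RPKM on day 6, 0.154, 0.281, 0.800 and 1.20 on day 12, and 1.38, 0.635, 1.10 and 0.740 on day 18. The groups did not overlap on any day, and the ratio of means was 2.79, 6.54 and 3.55. This feature of 337 bases held between 1 and 66 reads per library, so its control values rest on few reads.

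SMED30016797 came next with an average of 1.90 and was the steadier of the pair. On day 6 its pax5 libraries read 2.47, 2.54, 2.48 and 2.74 RPKM and its unc22 libraries 0.909, 0.812, 0.420 and 0.962. On day 18 they read 2.54, 2.88, 3.42 and 2.78 against 0.391, 0.821, 0.669 and 0.736 RPKM. All pax5 libraries lay above all controls on each day, and the ratio of means was 3.29, 3.57 and 4.44 on days 6, 12 and 18. Together with SMED30003653 it made up the members that were at least 2-fold higher throughout. Over the unc22 libraries both had a mean under 1 RPKM, 0.804 for SMED30016797 and 0.875 for SMED30003653.

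SMED30031194 and SMED30028726 differed from these in that the pax5 mean was higher on each later day. The pax5 libraries of SMED30031194 read 1.74, 1.92, 1.45 and 2.59 RPKM on day 6 and 4.16, 4.79, 6.13 and 5.67 on day 18, and the unc22 libraries 1.26, 1.38, 1.34 and 1.29 and then 1.40, 2.26, 2.90 and 2.20. Day 6 values almost touched (1.45 against 1.38), while day 18 values stood apart by a wide margin. For SMED30028726 the pax5 means were 1.71 ± 0.328, 2.64 ± 0.393 and 3.67 ± 0.445 RPKM and the unc22 means 0.926 ± 0.131, 1.26 ± 0.293 and 1.76 ± 0.484 (SD, n = 4). Both means were higher on each later day, and the ratio stayed between 1.85 and 2.09.

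SMED30011796 showed the same parallel course, and its pax5 libraries lay close together on day 18. Its pax5 libraries read 1.85, 2.58, 2.16 and 2.00 RPKM on day 6 and 4.64, 4.64, 4.61 and 4.47 on day 18, while unc22 read 1.33, 0.759, 1.29 and 1.25 and then 2.41, 2.23, 2.11 and 2.90. The ratio of means was 1.86, 1.90 and 1.90 on the 3 days. In zfp1 libraries the day 18 values, 3.41, 4.05, 4.29 and 2.74 RPKM, overlapped the highest control.

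SMED30024253 and SMED30010860 had their smallest pax5 ratio on day 18. For SMED30024253 the ratio of means was 2.22, 2.78 and 1.52 on days 6, 12 and 18, so it was highest on day 12. Its pax5 libraries read 1.96, 1.99, 1.66 and 1.83 RPKM on day 6 and 3.15, 2.16, 2.44 and 2.82 on day 12. On day 18 they read 1.54, 1.17, 1.53 and 1.11 RPKM, and the highest unc22 library, at 1.16, overlapped them. SMED30010860 stood at 4.42, 4.15, 3.69 and 4.19 RPKM in pax5 on day 6 against 1.57, 1.43, 1.72 and 1.23 in unc22, and overlapped the controls on both later days. Its zfp1 libraries also lay above the controls on day 6, at 2.37, 2.46, 1.93 and 2.29 RPKM, the 1 member for which they did, where 3.05% of all features were higher without overlap. One sox8 day 6 library, the shallowest of the series, held 0 reads of it.

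**Figure D3:**
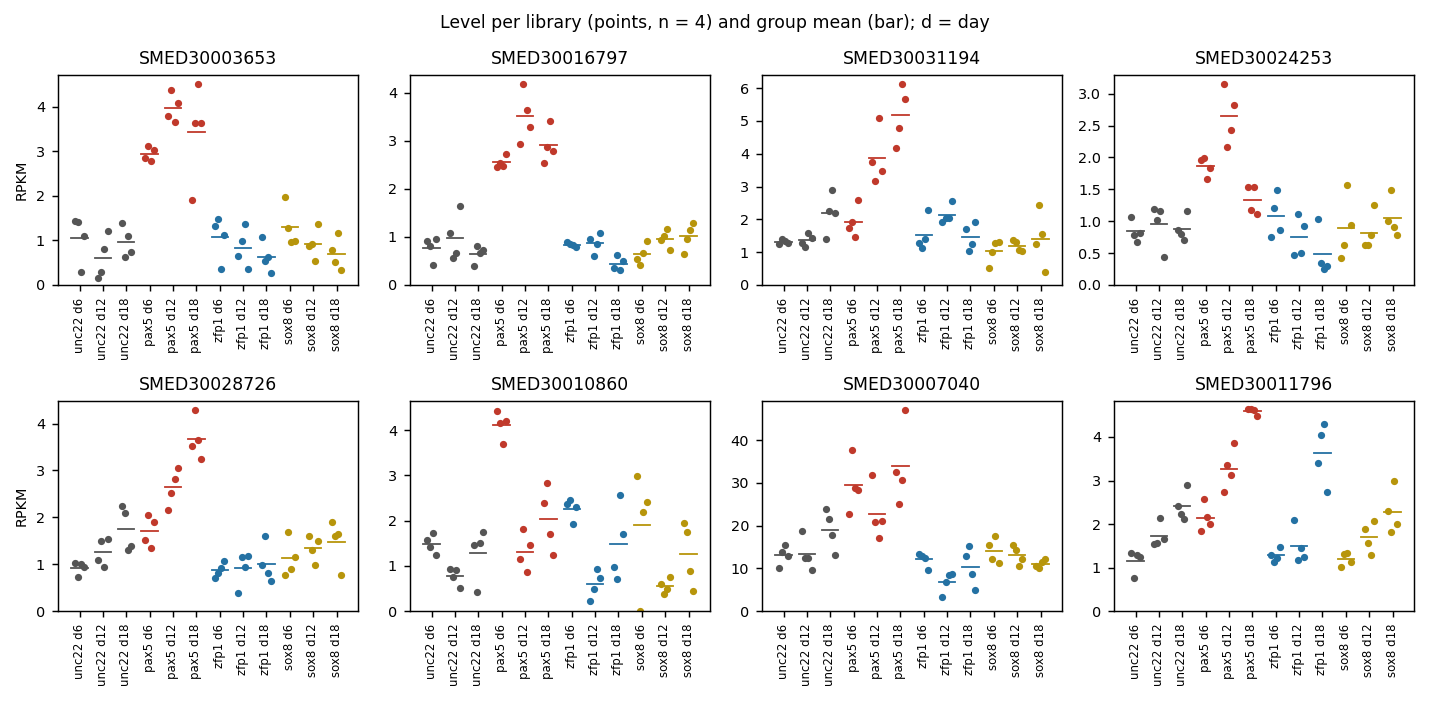
RPKM per library (points, n = 4 per group) and group mean (bars) of the 8 members with the largest average pax5 change, for unc22, pax5, zfp1 and sox8 on days 6, 12 and 18 (d). The pax5 groups of SMED30003653 and SMED30016797 lie apart from all controls, while SMED30024253 and SMED30010860 overlap them by day 18.

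Among the abundant members, SMED30020306 had the highest level per length, with a mean of 424 RPKM over all libraries, for an inferred length of only 97 bases. Its pax5 libraries read 367, 514, 433 and 504 RPKM on day 6 and 643, 785, 603 and 717 on day 18, and unc22 read 331, 284, 338 and 273 and then 338, 470, 449 and 388. Controls ended below the lowest pax5 library on each day, with ratios of 1.48, 1.88 and 1.67. SMED30010180, of 915 bases, had nearly the same ratios, 1.56, 1.86 and 1.67, at pax5 means of 47.1 ± 4.82, 63.0 ± 2.54 and 63.1 ± 5.96 RPKM (SD, n = 4). The pair had the most similar profiles of all 666 pairs of members, with a Pearson correlation of 0.976 over the 12 group means and 0.913 over the 48 libraries, which share the scaling of each library (median over pairs of members 0.506 over groups). The rule used most of these group means, so likeness among members is partly set by the choice. Whether the pair come from the same transcript was not tested.

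SMED30012684 stood lower on day 18 than on day 6 in both pax5 and unc22. Its pax5 libraries read 96.7, 76.2, 81.5 and 80.5 RPKM on day 6 and 21.7, 23.9, 21.0 and 22.8 on day 18, against 44.7, 47.8, 45.4 and 64.9 and then 12.7, 12.1, 13.1 and 13.3 in unc22. On day 12, 1 pax5 library at 20.7 RPKM fell among the controls. SMED30027739 overlapped the controls on day 6, because of 1 unc22 library at 37.6 RPKM, and had ratios of 1.43, 1.68 and 1.53. Later it separated only narrowly. The lowest pax5 and highest unc22 library read 28.8 and 28.5 RPKM on day 12, and 34.6 and 33.6 on day 18. SMED30007040, of 234 bases, was 2.25-fold higher on day 6 (22.7 to 37.7 RPKM against 10.1 to 15.4) and 1.77-fold higher on day 18.

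The change between days of the pax5 effect was read from the same contrasts and is likewise descriptive. The widest gains from day 6 to day 18 in the log2 ratio were 0.91 for SMED30017672, 0.90 for SMED30026955 and 0.70 for SMED30031194. Drops were widest for SMED30013571 (-1.23), SMED30010860 (-0.81) and SMED30004131 (-0.69). SMED30013571, of 276 bases, shows how little such values can rest on, with day 6 libraries from 1.51 to 5.18 RPKM in pax5 and 0.470, 0.427, 0.344 and 3.84 in unc22. In the limma fit 0 of 37 members were called for a change of the pax5 effect between day 6 and day 18, where 0.216% of features were called higher and 1.78% lower, and 4 members, and 2214 of all 22667 features, had an unadjusted p under 0.05.

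The response to zfp1 RNAi on day 6 is the knockdown contrast that the choice of members did not use, though it shares its unc22 libraries with the pax5 contrast of that day. No member passed the test. Limma called 0 of 37 higher and 0 lower, where 0.728% and 0.631% of all features were called, while 3 members, and 2470 of all 22667 features, had an unadjusted p under 0.05. The median over the members was 0.07 in log2(RPKM + 0.5), against 0.00 over all features. As log2 ratios of means, 26 members lay above 0 and 11 below, and 33 of the 37 lay within 0.5 of the control. In the limma fit, 51.2% of all features lay above 0. A low unc22 value on day 6 raises the pax5 and the zfp1 ratio alike, so no direction is read from these counts.

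SMED30020306 had the smallest p of the members. Its zfp1 libraries read 116, 310, 263 and 238 RPKM against 331, 284, 338 and 273 in unc22 on day 6, so the groups overlapped and 1 zfp1 library lay far below the rest. The change was -0.49 (SE 0.16, limma adjusted p = 0.160), with adjusted p-values from 0.0256 to 0.740 over the alternatives: it was called without zfp1 replicate 2 (-0.66) and was -0.18 without zfp1 replicate 1. SMED30012684 pointed the other way with 0.35 (SE 0.14, limma adjusted p = 0.286), at 54.1, 78.7, 56.4 and 69.2 RPKM in zfp1. With the sox8 day 6 libraries in place of unc22, limma also called 0 members, and the median was -0.10.

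On later days zfp1 was limited by the rule to changes above -1 on day 12 and between -1 and 1 on day 18. Within these limits members lay on both sides of the control, as did all features. On day 18, 18 members stood above the control and 19 below, and on day 12 it was 15 and 22. Of all features, 51.2% lay above 0 in the limma fit on day 18 and 47.8% on day 12. Limma called 5 members higher and 10 lower on day 18, beside 9.54% and 14.5% of all features, and 0 higher and 7 lower on day 12, beside 5.01% and 8.14%. The 5 higher on day 18 were SMED30012684, SMED30022959, SMED30020306, SMED30010180 and SMED30011796. SMED30010180, for example, read 48.5, 61.8, 65.3 and 44.0 RPKM in zfp1 and 34.1, 38.9, 40.3 and 37.6 in unc22, close to its pax5 level of that day. The largest log2 ratios were 0.80 for SMED30022959 and 0.79 for SMED30030440, and the lowest were -0.87 for both SMED30007040 and SMED30024253. The zfp1 mean of SMED30024253 rests largely on 1 library at 1.03 RPKM, against 0.253 to 0.341 in the others. This feature failed the rule with at least 1 replicate number left out.

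For SMED30007040, the zfp1 and pax5 means stood on opposite sides of the control on day 12, with pax5 libraries overlapping it. The zfp1 libraries read 3.25, 6.85, 8.41 and 8.80 RPKM, all under the controls at 18.6, 12.4, 12.5 and 9.71, and the pax5 libraries read 31.9, 20.9, 17.1 and 21.0. On day 18 they read 12.8, 15.2, 8.75 and 4.91 in zfp1 and 32.6, 25.02, 30.7 and 47.0 in pax5, with controls from 13.1 to 23.8, which overlapped the zfp1 libraries only. The sox8 libraries of day 18, from 10.2 to 12.2 RPKM, lay under all controls of that day. The unc22 mean was 13.1, 13.3 and 19.1 RPKM on days 6, 12 and 18. These contrasts share the unc22 libraries of each day, and the limits of the rule keep out features with a larger zfp1 fall.

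Under sox8 RNAi the members had a median of 0.12, 0.05 and 0.03 for the log2 ratio on days 6, 12 and 18. Limma called 0 of them in either direction on any day. Over all features, 0.375%, 0.0441% and 0.0574% were called higher and 0.397%, 0.243% and 0.706% lower on these days. Averaged over the days, SMED30026955 was highest at 0.81 and SMED30000969 next at 0.58, and SMED30031194 was lowest at -0.40, followed by SMED30007040 at -0.23. The pax5 averages of SMED30026955 and SMED30000969 were 0.66 and 0.63, and the zfp1 means of both also stood above the control on each day. For SMED30026955 the sox8 libraries of day 12 read 1.81, 1.95, 1.88 and 0.944 RPKM, pax5 1.01, 1.53, 1.93 and 1.49, and unc22 0.147, 0.674, 1.40 and 1.15, all overlapping. SMED30000969 read 2.49, 2.86, 2.04 and 2.31 RPKM in sox8 on day 12 and 0.878, 1.49, 1.41 and 1.10 in unc22, without overlap. It was the 1 member of which this was true on that day, where 3.65% of all features were higher without overlap, and in pax5 it overlapped the controls on every day.

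Time in culture was compared in the control worms alone, which asks whether the members move without pax5 RNAi. These libraries are denominators of the rule, but no contrast between days entered it. From day 6 to day 18 limma called 9 of the 37 members higher and 3 lower, beside 21.3% and 17% of all features, so 24.3% of members were called higher and 8.11% lower. Between days 6 and 12 it called 6 higher and 2 lower, beside 10.6% and 7.33% of features, and between days 12 and 18 it called 2 higher and 1 lower, beside 5.87% and 3.57%. No property of the members is read from these shares. The count for days 6 to 12 fell from 8 to 5 without unc22 day 6 replicate 2, without unc22 day 6 replicate 4 or without unc22 day 12 replicate 3.

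SMED30003121 rose most surely in the controls. Its unc22 libraries read 3.01, 2.48, 3.23 and 2.81 RPKM on day 6, 3.89, 4.56, 4.07 and 4.68 on day 12, and 6.16, 5.52, 5.31 and 6.36 on day 18, so no day overlapped another. The change from day 6 to day 18 was 0.91 (SE 0.07, limma adjusted p = 5.70e-13). In pax5 libraries it went from 3.97, 4.03, 4.54 and 4.27 RPKM to 11.5, 9.69, 10.9 and 10.4. At 3324 bases this feature held 86 to 907 reads per library and had among the smallest scatter of the members. SMED30011796 rose by 0.82 (SE 0.14, limma adjusted p = 1.02e-05) and SMED30028726 by 0.64 (SE 0.20, limma adjusted p = 0.00863) in the controls over the same time. The other 6 called higher were SMED30033351, SMED30020306, SMED30032617, SMED30022701, SMED30010180 and SMED30007867. Of these, SMED30020306 was not called in 5 of 16 alternatives (limma adjusted p up to 0.152): quantile normalization and without replicate 2 or 4 of unc22 day 6 or replicate 2 or 3 of unc22 day 18. SMED30007867 was not called in 3 (up to 0.125): with only the groups compared in the fit and without replicate 4 of either day.

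The falls were led by SMED30012684, at -1.93 (SE 0.14, limma adjusted p = 1.50e-14), whose control values are given above. SMED30025582 changed by -1.08 (SE 0.19, limma adjusted p = 1.35e-05), from 8.25, 9.66, 11.3 and 13.8 to 3.78, 4.71, 5.43 and 5.21 RPKM in unc22. Its pax5 libraries went from 19.4, 13.4, 15.7 and 12.8 to 5.58, 5.57, 6.38 and 5.90 RPKM, a decline alongside the control. SMED30030440 changed by -0.72 (SE 0.25, limma adjusted p = 0.0208), from 0.956, 0.927, 1.12 and 1.52 to 0.912, 0.673, 0.243 and 0.245 RPKM. It was not called under quantile normalization or without unc22 day 6 replicate 4, unc22 day 18 replicate 3 or unc22 day 18 replicate 4 (adjusted p over the alternatives 0.00767 to 0.0880).

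**Figure D4:**
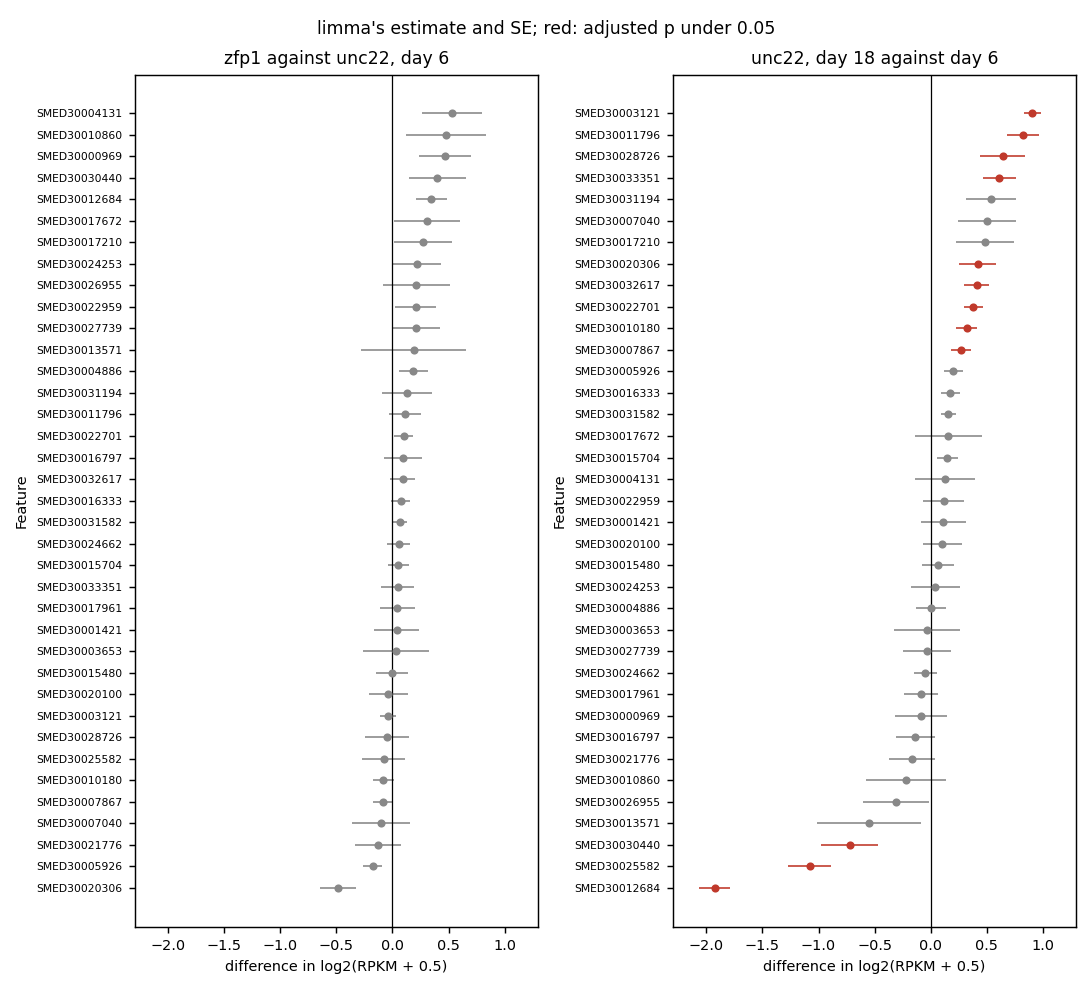
Limma's difference in log2(RPKM + 0.5) with its standard error for each of the 37 members, in zfp1 against unc22 on day 6 (left) and in unc22 on day 18 against day 6 (right); red marks an adjusted p under 0.05. None is red on the left, and 9 higher and 3 lower members are red on the right.

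Levels and lengths of the members ranged widely, from 1.06 to 424 RPKM and from 97 to 6169 bases, around low medians. The median level over the 48 libraries was 2.95 RPKM, against 9.02 for the 19094 features with a mean of at least 1, and 15 had a mean under 2, 16 between 2 and 10, and 6 of at least 10 RPKM. Inferred length, which the rule did not use, had a median of 698 bases, against 1217 for these features and 520.5 for the 52 features that met the pax5 threshold but failed another condition. It was under 500 bases for 13 members, 500 to under 1000 for 15 and at least 1000 for 9. Scatter between replicates, as the pooled SD of log2(RPKM + 0.5) within groups, had a median of 0.25, against 0.12 and 0.33 in the same sets. The median length was shorter, and the median scatter larger, in those 52 than in the members, and neither difference was tested. Level and length bear on the number of reads behind a value. The part of level, length and scatter in the choice of members was not tested. On the 12 unc22 libraries alone, 27 of the 37 would have reached a mean of 1 RPKM, so the other 10 passed this limit through the RNAi groups. SMED30003653, SMED30016797 and SMED30024253 were among these, with unc22 means of 0.875, 0.804 and 0.890 RPKM. For each of them, all pax5 group means lay above every other group mean.

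The number of reads and the overlap of libraries are set side by side as a description, since the rule used the same contrast and no relation was tested. At least 20 reads in every library were found for 14 members, and for 11 of these the pax5 and unc22 libraries did not overlap on any day. A library with fewer than 3 reads was found for 11 members, and 3 of these separated on all days. Of the 12 in between, 5 did. The matching shares of all features were not counted. Members that overlapped the controls on all 3 days were SMED30013571, SMED30026955, SMED30000969, SMED30030440 and SMED30017672, which are from 276 to 509 bases long.

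The average pax5 change alone would have chosen 89 features, and 52 of these failed another condition. Of the 52, 26 stood at or above 1 in zfp1 on day 18, 23 at or below -1, 18 at or below -1 in zfp1 on day 12, and 4 at or below -0.5 in sox8; 15 failed more than 1 condition. The largest average pax5 changes lay among them: SMED30034302 had 2.83 and SMED30033800 had 2.58, with zfp1 changes of 1.75 and 3.14 on day 18. By contrast 2.01 was the most in any member. Median average changes were 0.66 for members and 0.75 for the 52. On day 6 in zfp1, which no condition used, the medians were 0.09 and 0.01 as log2 ratios, and the difference was not tested.

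**Figure D5:**
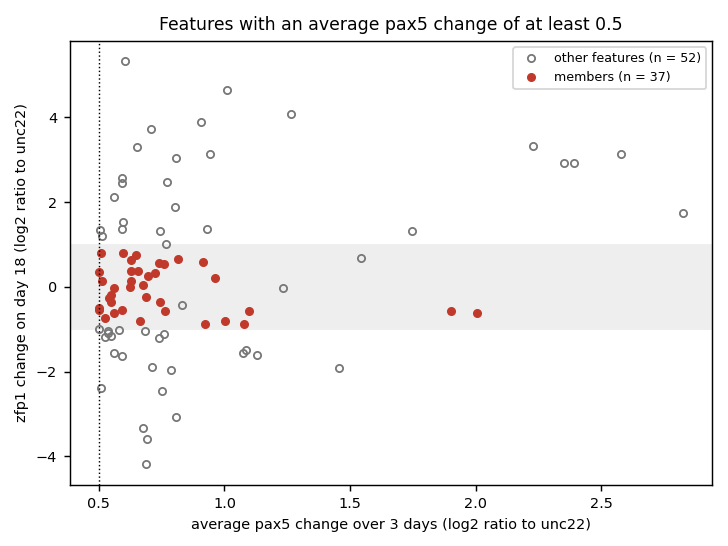
Average pax5 change over the 3 days against the zfp1 change on day 18, both as log2 ratios to unc22, for the 37 members (red) and the 52 other features (open) with an average pax5 change of at least 0.5; the grey band spans -1 to 1. The members lie inside the band by the rule, and open points inside it failed another condition.

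The members closest to the threshold of 0.5 were SMED30031582 at 0.501, SMED30017672 at 0.50025 and SMED30007867 at 0.50017. Just outside were SMED30030199 at 0.497, SMED30018997 at 0.481 and SMED30012733 at 0.476, which met all other conditions. SMED30007867, of 6169 bases, held 110 to 1618 reads per library, and its pax5 and unc22 libraries did not overlap on any day despite its place at the limit. SMED30017672 held 2 to 32 reads and overlapped on all days.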

How the data were processed

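Polyadenylated RNA was sequenced in 48 libraries, all labelled as whole worm tissue. The authors deposited 1 table of RPKM values for 28413 features. The submitters' processing notes name CASAVA 1.8.2, Bowtie and edgeR, and the genome build or transcript set is not given in the sources used here. RPKM divides by length and depth, so a level can be compared between features, but a few reads on a short feature give a large value. The library size that the values imply was 0.929 to 1.073 times the read total of the library. Whole reads were recovered as multiples of each feature's smallest step, within a tolerance of 0.0001, for 100% of features; the length given is inferred from that step.

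Members were found by the rule stated in the report. Log2 ratios are of group mean RPKM. Tests used limma 3.58.1 in R 4.3.3 on log2(RPKM + 0.5), all 12 groups in 1 fit, over the 22667 features with a mean of at least 0.5 RPKM, two-sided, with Benjamini-Hochberg adjustment over all of them at a threshold of 0.05. Adding 0.5 understates changes of low features. The fit was tested on simulated data. Summaries used Python 3.11.15 with pandas 2.3.3. The features named are those with the largest average pax5 change, the highest level, the widest gain or drop between days, a call in a tested contrast, the extremes under sox8 and zfp1, and the nearest to the threshold. The members and lists were chosen with earlier results of these data known.

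Alternatives were other pseudocounts, filters and scalings, voom on the recovered reads, a replicate block and each replicate left out.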

Additional observations from a re-analysis of the deposited data

Results flagged for a closer look

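In 10 of 192 groups of 4 libraries examined, over the mean of the members and 15 named members, 1 library stood far from the other 3; chance flags about 1 in 20 groups. For the mean of the members in log2(RPKM + 0.5) these were pax5 day 6 replicate 2 at 2.57 and unc22 day 12 replicate 3 at 1.92. SMED30024253 stood at 1.03 RPKM in zfp1 day 18 replicate 1, against 0.253 to 0.341 in the others. SMED30011796 stood at 4.47 RPKM in pax5 day 18 replicate 4 and at 0.759 RPKM in unc22 day 6 replicate 2. SMED30012684 stood at 20.7 RPKM in pax5 day 12 replicate 3, against 33.2 to 35.4, and at 64.9 RPKM in unc22 day 6 replicate 4, against 44.7 to 47.8. SMED30027739 stood at 33.6 RPKM in unc22 day 18 replicate 2, against 21.3 to 22.5. SMED30003121 stood at 8.49 RPKM in pax5 day 12 replicate 3 and at 3.73 RPKM in sox8 day 6 replicate 2.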

How the results depend on the processing

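The number of features that meet the rule depends on its settings. It was 76 with a minimum mean of 0.5 RPKM, 22 with 2 RPKM, 79 after quantile normalization, and 84 or 24 with a threshold of 0.4 or 0.6 in place of 0.5. With a pseudocount of 0.5 on the group means it was 28, of which 24 were among the 37 members, and with means of log2(RPKM + 0.5), the scale of the tests, it was 30, of which 26 were members. Leaving out 1 replicate number gave 42 to 53 features, and 22 of the 37 members met the rule in all 4 of these. The 15 that did not include SMED30031194, SMED30024253, SMED30028726 and SMED30007040, which rank 3, 4, 5 and 7 by average pax5 change. Which condition each then failed is not given here. For zfp1 on day 6 the count of members called was 0 to 1 with a replicate left out, the 1 being SMED30020306 without zfp1 day 6 replicate 2. Between days 6 and 12 in unc22, 5 to 7 members were called with a replicate left out, against 8. For days 12 to 18 the range was 2 to 3 and for days 6 to 18 it was 10 to 14. With the replicate number as a block the counts were 0, 8, 3 and 12 members, as without it. Deviations of libraries with the same number correlated at -0.247 to 0.0658 between zfp1 and unc22 on day 6. With 4 libraries per group, these values cannot exclude that the number pairs them. With the sox8 day 6 libraries in place of unc22, the median of the members for zfp1 on day 6 changed sign, from 0.07 to -0.10, with 0 members called in either. Depth limits the 11 members with a library of fewer than 3 reads.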
